A study of Homo sapiens with 6 samples.

Results

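The microRNA (miRNA) repertoire of untreated HK-2 cells is described here from 3 control arrays, out of 6 arrays in the series. HK-2 is an immortalised human line of proximal tubular epithelial cells from kidney. The study asked how miRNA levels differ between HK-2 cells given aristolochic acid, a plant nephrotoxin, and cells without it, and the 3 treated arrays are not used here. The control cells were kept for 48 h in medium with 0.2% fetal calf serum and no aristolochic acid. Each sample gave 500 ng of RNA, which was labelled with the dye Cy5 and hybridised to its own single-colour array of locked nucleic acid probes. The repertoire therefore belongs to a single line under low serum. Nothing in the labels says whether the 3 samples came from separate cultures, so the spread between arrays may be technical. No group is compared with another, and all values are descriptions over 3 arrays with no test.

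A probe counted as human when its name held hsa-, and as detected when the deposited background-subtracted intensity was present and the spot was flagged OK on all 3 arrays. Of 1719 human probes, 583 (33.9%) were detected. All values below are background-subtracted intensities in arbitrary units, or shares of the summed intensity of these 583 probes on the same array. Probes bind and are read with unequal efficiency, so ranks, shares and arm differences are those of probe signal, not of molecule numbers.

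A miRNA is cut from a hairpin precursor, and either arm of the hairpin can be loaded into an Argonaute protein, where it guides repression of mRNAs. Pairing rests mainly on the seed near the 5′ end, so miRNAs with the same seed form families with overlapping targets. Tubular epithelium is known for miR-30, miR-192, miR-194, miR-215 and miR-200 family members, and many other miRNAs mark muscle, blood, brain or placenta. In old names a star marks the arm then thought to be the minor product, while names ending in -5p and -3p make no such ranking.

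RefSeq mature sequences (GRCh38.p14) were matched to 494 of the 583 detected miRNAs, 304 by the same name and 190 by an assignment of the old name to an arm. The sequences of 6 of the 10 brightest miRNAs come first, because these carried most of the signal. Each is written 5′ to 3′ with bases 2 to 8, the seed, in capitals.
miR-4454: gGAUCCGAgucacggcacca
miR-21: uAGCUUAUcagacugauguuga
miR-1260b: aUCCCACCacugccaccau
miR-1260: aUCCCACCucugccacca
miR-4284: gGGCUCACaucaccccau
miR-1246: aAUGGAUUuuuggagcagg
miR-4454 is annotated at chr4:163093607-163093626 on the minus strand. The mature miR-21 lies at chr17:59841273-59841294 on the plus strand, inside the bounds of the protein-coding gene VMP1. The mature miR-1260b lies at chr11:96341447-96341465 on the plus strand, inside the bounds of MAML2. The mature miR-4284 lies at chr7:73711327-73711344 on the plus strand, inside the bounds of STX1A. miR-1260 is at chr14:77266231-77266248 on the plus strand. miR-1246 is at chr2:176601024-176601042 on the minus strand, within no other annotated gene. The strand of the host genes was not compared. miR-1260b and miR-1260 have the same seed. The sequences of miR-4286, miR-720, miR-3960 and miR-1280 were not matched.

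The next sequences belong to the 3 families that followed miR-21 in summed signal. The let-7 members share the seed GAGGUAG.
let-7f: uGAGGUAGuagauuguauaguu
let-7a: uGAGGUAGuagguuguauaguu
let-7c: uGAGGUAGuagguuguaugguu
The miR-17 family members share the seed AAAGUGC.
miR-106a: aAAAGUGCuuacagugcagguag
miR-17: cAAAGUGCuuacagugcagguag
miR-20b: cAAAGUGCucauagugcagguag
miR-20a: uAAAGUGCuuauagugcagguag
The miR-30 members share the seed GUAAACA.
miR-30a: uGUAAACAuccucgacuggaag
miR-30e: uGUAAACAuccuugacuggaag
miR-30c: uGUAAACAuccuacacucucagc
Members of these families are close in sequence outside the seed as well. Between pairs of let-7 members the mature sequences differed at 1 to 6 positions (median 3, 36 pairs). Between pairs of miR-17 family members of equal length they differed at 1 to 5 positions (10 pairs). How far a probe for one member also binds its relatives was not tested.

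The signal was concentrated in very few probes. miR-4454 alone held 45.8%, 45.3% and 51.4% of the signal on Control 1, 2 and 3, a mean of 47.5% ± 3.38 (SD, n = 3). The 10 brightest probes of each array held 71.3%, 71.1% and 68.3% (70.2% ± 1.69), and the 100 brightest held 91.1% ± 0.365 (SD, n = 3 for both). Reaching 90% of the signal took 84, 89 and 92 probes on the 3 arrays, and reaching 99% took 397, 411 and 414. At the low end, 74 of the 583 detected miRNAs had a mean intensity under 5 and 170 had one from 5 to 10, and these sets held 0.358% and 1.32% of the signal. The 9 miRNAs with a mean of at least 1000 held 69.2%.

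**Figure D1:**
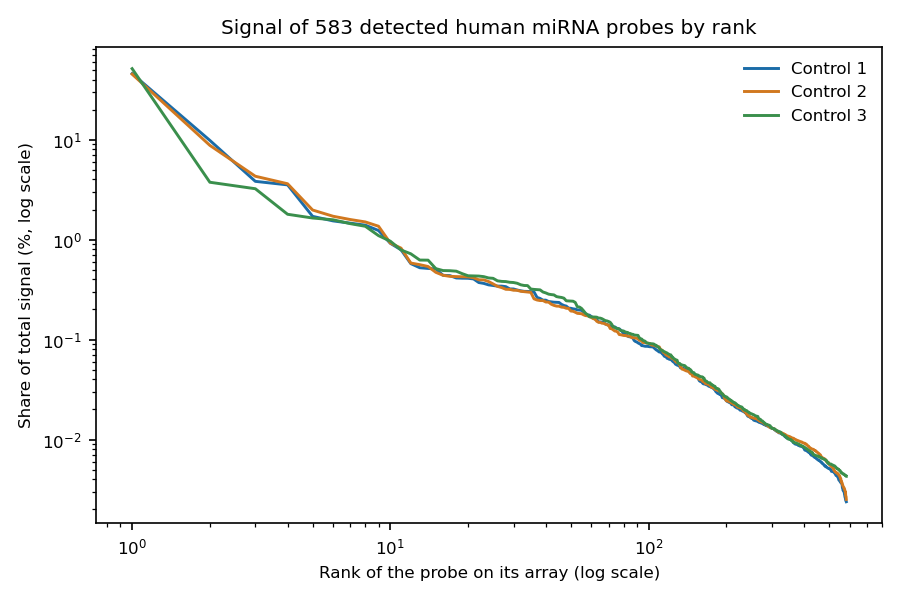
Share of the total signal (%, log scale) against the rank of the probe on its own array (log scale) for the 583 detected human miRNA probes, with 1 line for each control array. The 3 lines start between 45.3% and 51.4% and run close together below the tenth rank, while Control 3 lies lower at rank 2.

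miR-4454 had background-subtracted intensities of 46153, 42204 and 41015. It was the only human probe whose raw value was a whole number on every array, and the next brightest human probe had a raw value of 9962, 8229 and 3045. Whether this spot was saturated or read at another scan setting was not tested, so its share of 47.5%, and every share of a total that holds it, carries that doubt. With miR-4454 left out of the total, the 10 brightest probes held 44.5% ± 7.06, and 12, 12 and 24 probes were needed for 50% of what was left. Shares of every other miRNA are therefore small partly because of this probe, and intensities are given beside them.

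miR-21, a miRNA abundant in many proliferating and injured epithelia and a repressor of PDCD4, was second on average. Its intensity was 9911 on Control 1, 8177 on Control 2 and 1313 on Control 3. Controls 1 and 2 were close to each other and Control 3 was far lower, and the mean of the first 2 was 6.89 times the value of Control 3. Its share was 6.76% ± 4.46 (SD, n = 3), and it had rank 2, 2 and 5. The star arm of the same hairpin read 18.2, 14.1 and 13.7, so that Control 3 was close to Control 2 for this arm. No other detected miRNA had a larger spread of its log2 share (SD 1.44).

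After miR-21 came a run of miRNAs with high catalogue numbers. miR-1260b read 3857, 4015 and 2994 (3.96% ± 0.302). miR-4286 read 3556, 3377 and 2579 (3.46% ± 0.205). miR-720 read 1722, 1844 and 1432 (1.83% ± 0.137). The order of these 3 was the same on every array, and all 3 exceeded miR-3960 on every array. miR-3960 had 1551, 1480 and 1261 (1.57% ± 0.0261), the steadiest share among the 10 brightest. miR-1280 had 1242, 1597 and 1153, miR-4284 had 1405, 1401 and 1086, and miR-1246 had 1472, 1269 and 770.0. Their order changed between arrays, so these 3 are not separable beyond their spread. miR-1260 had 925, 861 and 875 (0.980% ± 0.101).

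As background, miR-720 and miR-1280 were later withdrawn from the miRBase catalogue because their sequences match tRNA fragments, and miR-1246 is known to match part of the U2 small nuclear RNA. Which RNA species gave the signal of these probes was not tested. Among the 494 matched miRNAs, 11 (2.23%) end in CCA, the bases added to the 3′ end of every tRNA, against 45 of 2370 mature sequences in RefSeq (1.90%). These 11 held 48.9% of the signal, nearly all of it from miR-4454, with miR-1260 and miR-4484 next.

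The second 10 of the 20 brightest mixed well-studied miRNAs with recently named ones. miR-4723-5p read 797, 766 and 629, and miR-30a read 580, 543 and 576, and this order held on every array. miR-3648 read 519, 502 and 498, and miR-23a read 527, 397 and 499. let-7f read 513, 524 and 364, miR-29b read 443, 395 and 386, miR-106a read 413, 388 and 390, and miR-29a read 407, 369 and 409. miR-4787-5p read 439, 400 and 345, and miR-3665 read 414, 439 and 304. From miR-3648 down, no neighbouring pair kept its order on all 3 arrays.

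**Figure D2:**
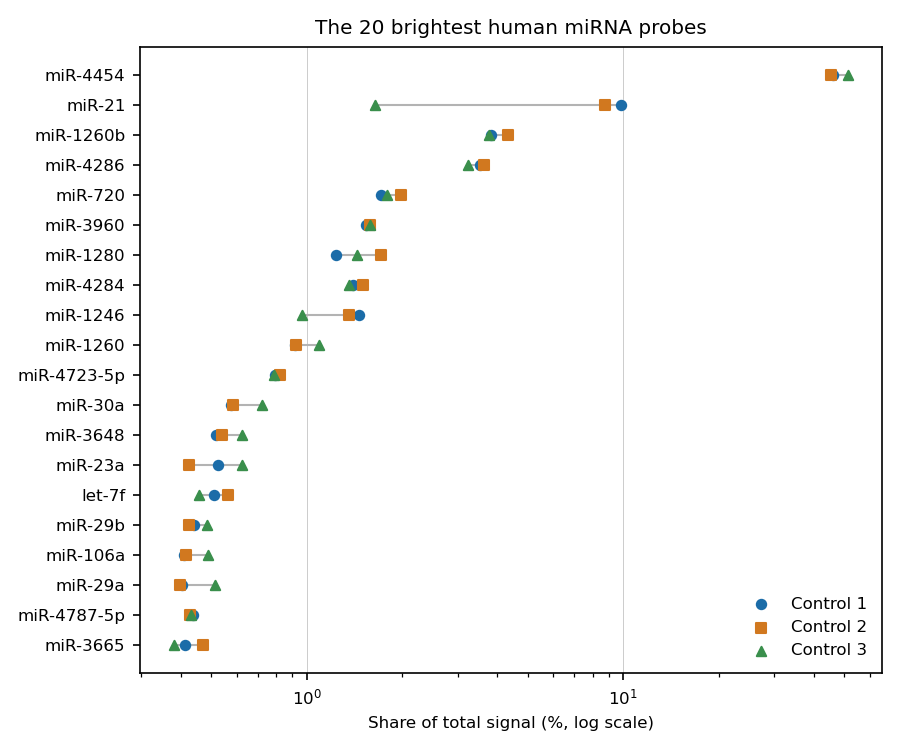
Share of the total signal (%, log scale) of the 20 brightest human miRNA probes, sorted by mean share, with 1 symbol for each control array and a grey line over the range. miR-21 has the widest range (1.65% to 9.84%), and miR-4454 lies at 45.3% to 51.4%.

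Names with a number above 1000, which were added to the catalogue late, held most of the signal, and most of that was miR-4454. They made up 304 of the 583 detected miRNAs and 74.2% ± 2.87 of the signal, against 279 miRNAs and 25.8% ± 2.87 for names up to 1000, let-7 included. With miR-4454 left out of the total, they held 48.6%, 50.7% and 53.7% on Control 1, 2 and 3 (51.02% ± 2.58), close to the 49.0% ± 2.58 of names up to 1000. The share of probes detected was 32.5% of 934 for numbers above 1000 and 35.5% of 785 for numbers up to 1000. Among the 20 brightest probes 12 had a number above 1000, and among the 50 brightest 23 did. The 5 brightest of them were miR-4454, miR-1260b, miR-4286, miR-3960 and miR-1280.

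The detected miRNAs with late numbers were rich in G and C. Of those with a number above 1000, the 304 detected ones had a median GC content of 65.0% (254 matched), against 42.9% for the 345 kept on no array (281 matched). A GC content of at least 60% was found in 67.7% of the detected ones and in 11.03% of those on no array. For numbers up to 1000 only 53.6% of the miRNAs on no array could be matched, so that comparison is void, and the detected ones had a median of 50%. Among the brightest 124 matched miRNAs, the 58 with a number above 1000 had a median GC content of 71.7%, and 22.4% of them began with U. The 66 with a number up to 1000 had 45.5%, and 62.1% of them began with U, the 5′ base that Argonaute proteins favour. In RefSeq as a whole 36.8% of mature miRNAs begin with U and the median GC content is 52.2%. Over all names together there was no stable trend of GC content with signal. The brightest 124 differed from the dimmest 123 by -4.18 percentage points on average over the arrays. With Control 3 left out the difference was 1.48, but 745 miRNAs were then detected, so the sets compared were not the same. Whether probes for GC-rich sequences bind other RNA was not tested.

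Summed by family, 25 miRNA families had 87 probes, 78 of them detected, and held 21.1%, 19.9% and 15.1% of the signal (18.7% ± 3.20, SD, n = 3). Without miR-4454 in the total they held 35.5% ± 4.07. miR-21, alone in its family here, led with 6.76%. The let-7 family followed with 2.08% ± 0.179, the miR-17 family with 1.91% ± 0.246 and the miR-30 family with 1.80% ± 0.183. Next were miR-29 (0.979%), miR-23 (0.944%), miR-15/16 (0.820%), miR-19 (0.445%), miR-103a with miR-107 (0.408%) and miR-221 with miR-222 (0.333%). On Control 3 miR-21 held 1.65%, less than let-7 (2.26%), miR-17 (2.19%) and miR-30 (2.01%).

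All 9 let-7 members, repressors of growth genes such as RAS and HMGA2 in differentiated cells, were detected. let-7f was brightest with 24.5% of the family signal, followed by let-7a at 305, 336 and 305 and let-7c at 303, 283 and 234. let-7d read 199, 201 and 346, so that Control 3 was the high array for this member while it was the low one for let-7f. let-7e read 140, 197 and 225, let-7b read 190, 136 and 106.5, and let-7i read 131, 103 and 94.0. let-7g (75.6, 91.4 and 77.7) and miR-98 (57.3, 53.0 and 51.1) were dimmest.

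All 6 members of the miR-17 family, which promotes proliferation, were detected. miR-106a, miR-17, miR-20b, miR-20a and miR-93 had mean intensities from 249 to 397, and miR-106b read 150, 139 and 169. miR-17 read 341, 296 and 347, and miR-93 read 207, 232 and 309. Their cluster mates were dimmer or more variable. miR-19b had 310, 165 and 299 and miR-19a had 151, 149 and 131, while miR-18a (mean 47.2), miR-18b (42.1) and miR-92a (80.2) were lower. All 6 hairpins of the cluster from MIR17 to MIR92A1 (chr13:91350605-91351391, plus strand) had a detected product, and its products held 1.31% ± 0.175 of the signal. Where a mature sequence comes from several hairpins, such as miR-19b and miR-92a, the array cannot tell which one it came from.

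The 5 miR-30 members, abundant in kidney epithelium, were all bright. miR-30a led, miR-30d read 375, 410 and 277, and miR-30e read 250, 229 and 297. miR-30c read 250, 179 and 256, and miR-30b read 240, 221 and 195. The miR-29 family, which represses collagens and other matrix genes, had 2 bright members, miR-29b and miR-29a, whose order changed between arrays, and miR-29c at 86.3, 82.2 and 81.3. miR-23a and miR-23b were near each other (means 474 and 347), and miR-23c read 34.9, 31.1 and 33.9. The clusters that hold miR-23, miR-27 and miR-24 were detected in full, with miR-27a at 203, 175 and 146 and miR-24 at 183, 162 and 134.

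Of the miR-15/16 family, which restrains cyclins and BCL2, miR-16 was brightest with 306, 297 and 391. miR-424 averaged 195, miR-15b 102, miR-15a 75.8 and miR-195 32.1. miR-497 was kept on Controls 1 and 2 only. miR-103a and miR-107, which differ at 1 position, had almost equal means of 185 and 184, but their order changed between arrays. miR-103a read 177, 151 and 227, against 204, 191 and 155 for miR-107. miR-221, a repressor of the cell cycle inhibitor p27, read 242, 170 and 211, above miR-222 at 91.9, 102 and 88.3. The miR-181 family was led by miR-181c and miR-181a (means 104 and 97.0), followed by miR-181b (50.3) and miR-181d (31.5). In the family of miR-130 and miR-301, miR-130a averaged 123, miR-130b 40.5, miR-301a 36.0 and miR-301b 13.4. In the miR-26 family miR-26a averaged 137 and miR-26b 65.6. miR-27b averaged 102.

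The dim families included several that are strong in other cells. miR-25 (83.1, 87.1 and 142) and miR-92a led the miR-92/25 family, with miR-92b (mean 21.5), miR-363 (14.03) and miR-32 (9.82) lower and miR-367 on no array. miR-125a-5p averaged 52.9 and miR-125b 13.4. miR-99b averaged 26.7 and miR-100 3.69, near the detection limit, while miR-99a was kept on 2 arrays. miR-152 averaged 12.7 and miR-148b 5.37, with miR-148a on no array. The 5 miR-320 members averaged 11.04 to 18.8. Of the family of miR-34 and miR-449, miR-34a, a p53 target, was detected at 39.2, 29.6 and 34.6. The probe named miR-34b was kept on 1 array, miR-449b on 2, and miR-34c-5p and miR-449a on none. Its star arm miR-34b*, matched to miR-34b-5p and not counted in the family here, was detected at 14.8, 15.2 and 9.06. Whether this signal came from the miR-34b hairpin or from a related sequence was not tested.

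**Figure D3:**
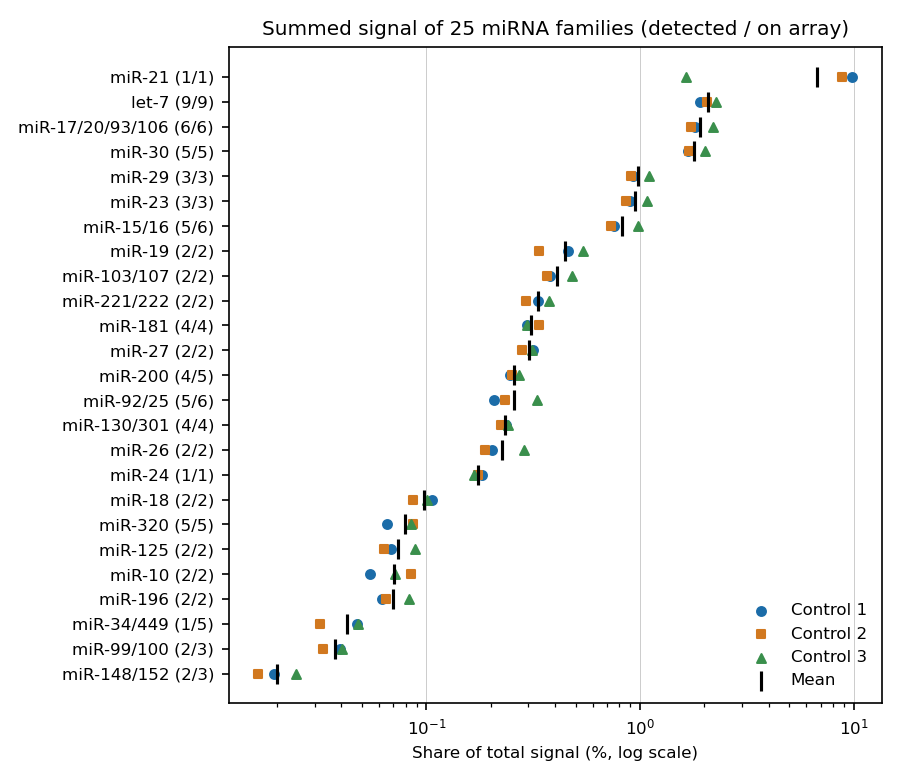
Share of the total signal (%, log scale) of 25 miRNA families, with 1 symbol for each control array and a bar at the mean; detected members over members on the array stand in brackets. let-7, the miR-17 family and miR-30 lie near 2% on every array, while miR-21 runs from 1.65% to 9.84%.

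Arm use followed the old star names in most hairpins. Of 186 hairpin products with a probe for the main and for the star arm, both were detected in 40. The main arm was brighter on all 3 arrays in 36 of the 40, the star arm in 3, and the order changed in 1, miR-593 (8.0, 7.0 and 5.1 for the main arm, 5.4, 4.4 and 6.1 for the star arm). The main arm exceeded the star arm by a median of 3.24 on the log2 scale as measured. In a further 78 pairs only the main arm was detected, and in 37 of these the star arm was on no array. In 11 pairs only the star arm was detected, and in 57 neither was. Many star arms lay close to the detection limit. With at least 10 required of both arms on all 3 arrays, 7 pairs were left and the main arm led on every array in 6.

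The widest arm difference was that of miR-21 over its star arm, 8.29 ± 1.47 on the log2 scale (SD, n = 3), with the spread coming from miR-21 itself. In 9 of the 40 pairs the dimmer arm exceeded the highest negative control spot on all 3 arrays, and miR-21* was among these. For the other pairs the difference is given as a bound, with the dimmer arm set no lower than that spot on each array. By this measure let-7a exceeded let-7a-2* by at least 5.76 and let-7a* by at least 5.69 on the log2 scale. miR-29b exceeded miR-29b-1* by at least 5.82, miR-16 exceeded miR-16-2* by at least 5.34 and miR-30c exceeded miR-30c-1* by at least 4.85. The brighter arm exceeded both the dimmer arm and that spot on all 3 arrays in 37 of the 40 pairs. Some hairpins gave clear signal from both arms. miR-30a read 580, 543 and 576 beside 107.01, 97.4 and 90.03 for its star arm. miR-30e read 250, 229 and 297 beside 85.7, 91.0 and 68.0.

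The star arm led in 3 hairpins on every array. miR-1228 read 6.65, 10.2 and 3.63, against 151, 136 and 123 for miR-1228*, so that the star arm led by at least 4.19 on the log2 scale. miR-149 read 10.3, 7.65 and 5.31, against 104, 104 and 87.9 for miR-149*, so that the star arm led by at least 3.52. miR-92b read 21.4, 20.3 and 22.9, against 46.0, 45.3 and 42.2 for miR-92b*. The brightest star arm whose main arm was not detected was miR-187*, at 315, 355 and 251 and ranked 30 of 583, with miR-187 kept on 2 arrays. The other 10 such star arms had means from 3.67 to 13.8. The mature miR-187* is annotated at chr18:35904871-35904892 on the minus strand, and its sequence is shown because this arm runs against the old naming.
miR-187*: gGCUACAAcacaggacccgggc

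Of 244 hairpins named by -5p and -3p arms, both arms were detected in 34. The -5p arm was brighter on all 3 arrays in 16, the -3p arm in 7, and the order changed between arrays in 11. The median log2 difference of -5p over -3p was 0.26. The dimmer arm exceeded the highest negative control spot on all 3 arrays in 10 of the 34. For other pairs with a leading arm, the differences below are bounds. In miR-4723 the -5p arm led by at least 6.61 on the log2 scale (797, 766 and 629, against 5.00, 3.14 and 7.68 for the -3p arm), and in miR-4787 by at least 5.53. miR-4732-5p and miR-4667-5p led their -3p arms by at least 4.80 and 4.42. The reverse held for miR-125a, whose -5p arm, the member of the lin-4 family, read 55.0, 46.6 and 56.9, against 345, 309 and 340 for the -3p arm, a log2 difference of -2.65 ± 0.07. The -3p arm also led in miR-3663 (-2.37 ± 0.26), miR-142 (-2.27 ± 0.14), and miR-4758 (-1.92 ± 0.20), and in miR-486 it led by at least 1.17. The unsettled hairpins had mean measured log2 differences of 0.05 to 0.41 between their arms, apart from miR-3607 at 1.01. miR-140 read 28.4, 22.8 and 33.9 from its -5p arm and 36.2, 36.5 and 31.4 from its -3p arm. The others were miR-324, miR-3607, miR-3622a, miR-3944, miR-423, miR-4436b, miR-4685, miR-4716, miR-532 and miR-615. In miR-324, miR-3622a, miR-3944, miR-4716, miR-532 and miR-615 the dimmer arm exceeded the highest negative control spot on 1 array only. Their bounds ran from -0.49 to -0.07, so arm use in these is unresolved at the detection limit.

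**Figure D4:**
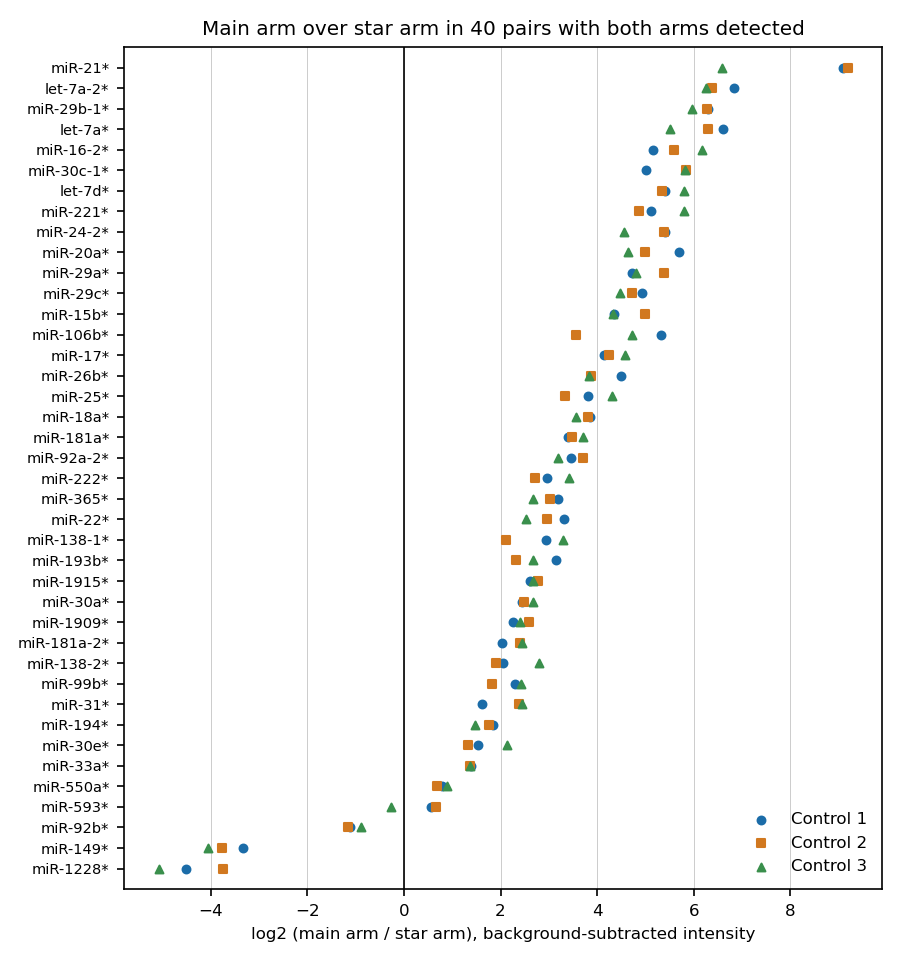
Log2 of the main arm over the star arm, from background-subtracted intensities, in the 40 pairs with both arms detected on all 3 control arrays, with 1 symbol for each array; each row is named by its star arm and the vertical line marks equal signal. In 36 rows every symbol lies right of the line, and miR-92b*, miR-149* and miR-1228* lie left of it.

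Kidney miRNAs were present, but unequal in brightness. Of 12 miRNAs listed for proximal tubule and kidney, 10 were detected on all 3 arrays, against 33.9% of all human probes, led by miR-30a, miR-30d and miR-30c. All lineage lists were chosen with earlier results of these data known, so such comparisons are not independent of the data. miR-192, which is strong in adult kidney cortex, read 16.8, 11.8 and 15.6, and ranked 256. Its cluster mate miR-194 read 13.5, 9.83 and 12.7, and miR-215, which has the same seed as miR-192, read 8.37, 10.9 and 4.54.
miR-192: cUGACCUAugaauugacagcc
miR-215: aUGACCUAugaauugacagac
miR-194: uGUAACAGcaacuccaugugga
These sequences are shown because they are the classic kidney markers. miR-192 and miR-194 (means 14.7 and 12.0) lay near the median of the 583 detected miRNAs (12.3), and miR-215 ranked lower, at 393. The highest negative control spot lay 3.19, 10.6 and 5.80 above background on Control 1, 2 and 3. miR-192 exceeded it on every array, but miR-194 did not on Control 2, nor miR-215 on Control 3. The patterning miRNAs of the HOX gene clusters were somewhat brighter, with miR-196b at 47.5, 44.5 and 49.9, miR-10b at 33.6, 42.4 and 29.5, miR-10a at 21.3, 36.8 and 27.7, and miR-196a at 14.6, 15.6 and 16.01. miR-204 was kept on Controls 2 and 3 (4.56 and 5.56) and miR-211 on Controls 1 and 2 (5.55 and 7.78). Of this list, then, the miR-30 members were the bright ones, while miR-192 and miR-194 were far dimmer than these and miR-204 was at the detection limit. How this compares with tubules in tissue was not analysed here.

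Epithelial miRNAs were also detected, 6 of 8 on all 3 arrays, against 33.9% of all human probes. The miR-200 family represses ZEB1 and ZEB2 and thereby holds the epithelial state. miR-200b read 106.5, 103 and 113, and miR-200a read 108, 96.4 and 72.3. miR-200c read 18.9, 22.3 and 17.0, miR-429 read 10.1, 9.74 and 14.6, and miR-141 was kept on Controls 1 and 2 alone (4.09 and 4.02). The miR-200b, miR-200a and miR-429 transcript and the miR-200c and miR-141 transcript come from separate loci, and in each the members were unequal in signal. miR-205, a marker of stratified epithelia, read 85.2, 81.8 and 70.0. miR-31 read 17.3, 12.3 and 21.8, and miR-203 was kept on 2 arrays.

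Markers of other lineages were mostly dim or missing, which also held for human probes at large. In 13 lists with 110 probes, 29 probes were detected on all 3 arrays (26.4%, against 33.9% of all human probes), 43 on 1 or 2 arrays and 38 on none. Over all human probes, 625 of 1719 (36.4%) were on none, so the listed markers were not set apart by the number missing. All 110 together held 0.914% of the signal. With at least 10 required on all 3 arrays, 15 of the 110 remained. By the same rule 287 of all 1719 human probes remained, 8 of 12 in the kidney list and 5 of 8 in the epithelial list. A missing value means a signal below the lowest kept value, which was 2.34, 2.34 and 3.42 on Control 1, 2 and 3.

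The liver miRNA miR-122 was kept on Control 1 alone (4.10). None of 19 listed miRNAs of the placental cluster on chromosome 19 was detected on all 3 arrays, against 33.9% of all human probes. On no array were 9 of the 19, against 36.4% of all human probes. In the annotated cluster from MIR512-1 to MIR519A2 (chr19:53666679-53762430), 1 of 42 counted hairpins had a product detected on all 3 arrays, miR-518c* at 4.83, 4.17 and 5.52. In muscle, miR-208a, miR-208b and miR-499-5p were on no array, while miR-1 read 22.4, 22.5 and 17.1 and miR-133a and miR-133b averaged 6.86 and 6.48. In the neural list miR-124 was on no array, and miR-138 (44.4, 39.3 and 44.9), miR-9 (mean 11.02), miR-129-5p (9.79) and miR-128 (9.26) were detected.

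Among haematopoietic miRNAs, miR-451 and miR-150 were on no array and miR-223 and miR-144 on 1 and 2 arrays. miR-142-3p read 63.2, 49.4 and 53.3, miR-142-5p averaged 11.4 and miR-486-5p 4.25. miR-155, which is induced in activated immune cells and also found elsewhere, read 49.7, 47.1 and 34.6. With miR-451, miR-150, miR-144 and miR-223 at or near the detection limit, the summed signal of this list was 134, 119 and 103. What gave the signal of miR-142-3p was not tested.

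The endothelial miR-126 averaged 7.64, and the stromal miR-145 and miR-214 averaged 10.5 and 9.56, with miR-143 on 2 arrays. Of the pluripotency list, miR-371-5p averaged 19.8 and miR-302b 8.31, and 3 of 9 were on no array, against 36.4% of all human probes. miR-375 was the second dimmest of all detected miRNAs (2.40, 3.45 and 3.42), and miR-7 averaged 21.9. miR-34c-3p of the ciliated cell list averaged 4.22, and miR-513a-5p of the germ line list 13.9. The star arms miR-34b* and miR-449b*, whose main arms are on the ciliated cell list, were not listed but were detected. miR-449b* read 11.7, 11.5 and 8.24.

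The sensory miR-96, miR-182 and miR-183, which are expressed from a single cluster, were all detected. miR-96 read 59.99, 82.9 and 92.0, miR-182 read 24.5, 33.4 and 46.0, and miR-183 read 36.8, 35.5 and 30.8. Of 31 listed miRNAs of the imprinted cluster on chromosome 14, 6 were detected, against 33.9% of all human probes, and they were far apart. On no array were 12 of the 31, against 36.4% of all human probes. miR-494 read 266, 221 and 215, and ranked 41, the brightest of the 110. miR-487b averaged 31.6, miR-370 13.8, miR-409-3p 4.41, miR-379 3.40 and miR-382 3.07. In the annotated stretch from MIR379 to MIR656 (chr14:101022066-101066801), 6 of 38 counted hairpins had a detected product, and miR-494 gave most of their signal.

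**Figure D5:**
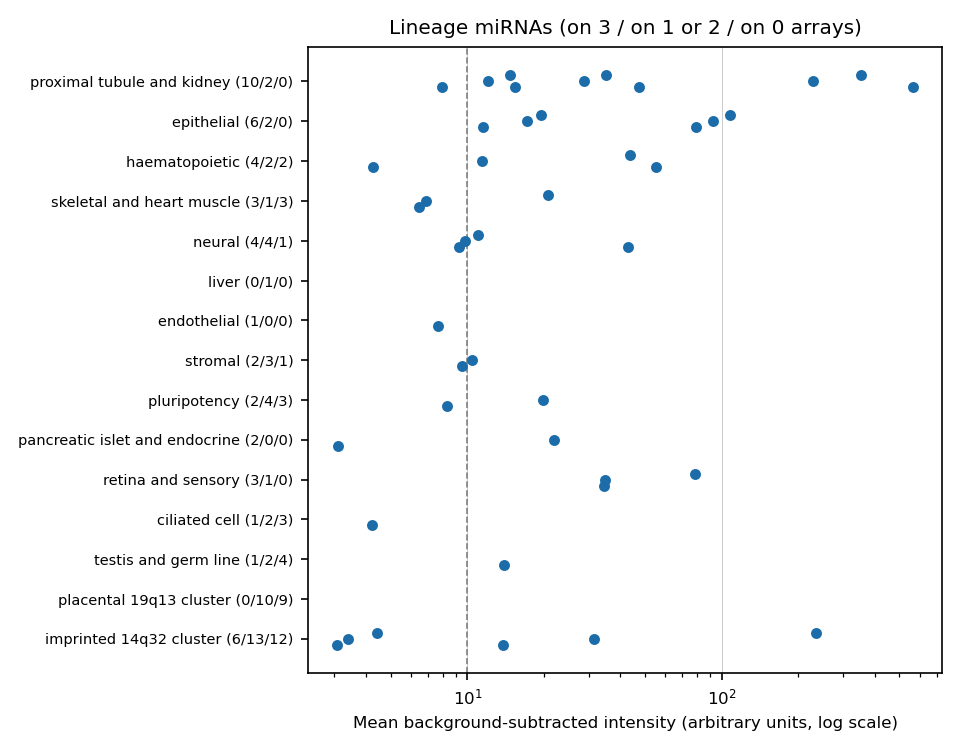
Mean background-subtracted intensity (arbitrary units, log scale) of each lineage miRNA detected on all 3 control arrays, with 1 point for each miRNA; the brackets give the numbers detected on 3, on 1 or 2, and on 0 arrays, and the dashed line marks 10. Kidney and epithelial miRNAs reach over 100, as does miR-494 of the imprinted cluster, while most points of the other lists lie below 100.

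The 3 arrays ranked the repertoire alike, with Control 3 slightly apart. Over the 583 probes, Spearman's rho was 0.954 between Controls 1 and 2, 0.945 between 1 and 3 and 0.918 between 2 and 3, as a description across probes that share the arrays. The 20 brightest probes shared 19, 17 and 16 members in the same pairs. The median SD of the log2 share was 0.13 in the brightest 146 probes and 0.33 in the dimmest 145, so the dim detected miRNAs are the least certain. Besides miR-21, the largest spreads were in miRNAs with means under 10, namely miR-661, miR-3605-3p, miR-877*, miR-4686, miR-4642, miR-466, miR-615-5p and miR-106b*, and in miR-378 (52.2, 13.2 and 11.8).

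Detection itself differed between arrays. Controls 1, 2 and 3 had 879, 936 and 644 human probes kept, and 162 probes were kept on Controls 1 and 2 but not 3, against 25 kept on 1 and 3 and 12 kept on 2 and 3. The lowest kept value was higher on Control 3 (3.42, against 2.34 on both others), as was the SD of its blank spots (1.71, against 1.17 on both others). Just inside the rule stood miR-382 and miR-375, and just outside it miR-3653 (16.5 and 12.9, not kept on Control 3) and miR-671-3p (9.70 and 9.89, not kept on Control 3). Of 24 negative control spots 6, 10 and 2 lay above the lowest kept raw value, and the highest lay 3.19, 10.6 and 5.80 above background. Of the 583 detected miRNAs, 322 exceeded the highest negative control on every array, and the 261 that did not held 1.91% of the signal.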

How the data were processed

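Levels of miRNAs were measured in 3 control samples of HK-2 cells, grouped by their labels, on single-colour arrays with 3136 spots each. Per the file headers, the authors deposited raw and background-subtracted intensity values, a globally normalized intensity and a flag for each spot. From the values, the subtraction takes 1 constant per array (50.9, 51.8 and 50.6) and leaves dim spots empty, and the normalization multiplies each array by 1 factor (3.51, 3.54 and 2.63). Scanner and software are not given in the sources used here. Background-subtracted intensities were used, without scaling between arrays, because shares are taken within an array. Their number and the signal over background, not read depth, limit the precision. The detected probes summed to 100680, 93168 and 79796 units.

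Shares, arm differences (log2) and spreads were computed per array with Python 3.11.15, numpy 2.4.6 and pandas 2.3.3, and as an alternative with the normexp correction of limma 3.58.1 (R 4.3.3). The steps were tested on simulated data. A family's share counts empty values as 0. Named miRNAs were the 20 brightest, the detected family members, the 10 widest and the unsettled arm pairs, the listed lineage miRNAs, the 10 with the largest spread and the 5 brightest with a number above 1000. Other named miRNAs (miR-187*, miR-34b*, miR-449b*, miR-30a*, miR-30e*, miR-4484, miR-518c*, miR-3653, miR-671-3p and further arm pairs) were chosen after their values were seen. The members, families and lineage lists were chosen with earlier results of these data known. No test was made, since no groups are compared. The 8 probes that carry several miRNA names were not detected. Alternatives covered the detection rule, background correction, the total, the family definition and leaving out each array.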

Additional observations from a re-analysis of the deposited data

Results flagged for a closer look

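The control probes named QC-Probe gave signal outside the human miRNA measurement. Their 53 spots had a mean raw intensity of 605.5 ± 47.7 (SD, n = 3 arrays), against 51.2 ± 0.645 for the blank spots, and 26, 28 and 16 of them were kept on Control 1, 2 and 3. What these probes target is not given in the sources used here.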

How the results depend on the processing

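The number of detected miRNAs depended most on the rule. Against 583 with all 3 arrays, 1094 were detected on at least 1 array, 335 lay above the blank mean plus 5 SD, 322 above the highest negative control spot and 287 at 10 or more. Listed miRNAs of other lineages numbered 29, against 72 on at least 1 array, 18 at 5 SD and 15 at 10 or more. Pairs with the main arm brighter than the star arm on every array numbered 36, and 6 with 10 or more required, since fewer pairs were left. The mean pairwise spread of log2 shares was 0.236, and 0.162 at 10 or more. The share of the 10 brightest was 70.2%, 68.5% with normexp and 44.5% without miR-4454, an alternative chosen after seeing the data. The family share was 18.7%, 12.8% without miR-21 and 35.5% without miR-4454. The difference in median GC content between the brightest and dimmest matched miRNAs was -4.18 points. It was -7.04 at 10 or more and 1.48 without Control 3, a change of direction. These alternatives also changed the number of detected miRNAs (287 and 745), so the sets compared were not the same. The cause was not tested. Leaving out each array in turn gave 595 to 745 detected miRNAs, 69.6% to 70.7% for the 10 brightest, 17.5% to 20.4% for the families, 36 to 49 arm pairs, 29 to 35 lineage miRNAs, a spread of 0.219 to 0.291 and a GC difference of -4.19 to 1.48 points. Of 135 alternative values for 19 results, 27 moved by more than the spread or 1.5 times the count, 1 reversed and the others did neither. Detection near the blank spots limits the dim miRNAs, and the arrays' number limits every spread. No paired analysis was possible because only the control group is described and no groups were compared.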

Other observations

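The hairpins that could be placed formed 25 groups of 3 or more lying within 10 kb of each other on 1 strand. All counted hairpins had a detected product in 7 groups and none in 5. The grouping was incomplete and is no census, since it holds no group for miR-96, miR-182 and miR-183. Besides the cluster of MIR17, the full ones included MIR99B, MIRLET7E and MIR125A on chromosome 19, whose products held 0.672% ± 0.127 of the signal (SD, n = 3 arrays), and MIRLET7A1, MIRLET7F1 and MIRLET7D on chromosome 9, with 1.16% ± 0.136. In the related cluster from MIR363 to MIR106A on chromosome X, products of all 5 counted hairpins were detected and held 0.883% ± 0.142. MIR20B lies within the same bounds on the same strand but was not among the 5. That share therefore leaves out miR-20b, which held 0.340%. A product made from several loci is counted in each of them. The clusters with no detected hairpin were those of MIR509, MIR105, MIR890, MIR941 and MIR657.

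miR-1290, a short miRNA of 19 bases, read 302, 317 and 277 on Control 1, 2 and 3 (rank 31). miR-762 read 355, 290 and 292 (rank 28). miR-185* was flagged as not good on Control 1, where it read 51.1, against 4.71 on Control 2, and it was not kept on Control 3.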
